A study of Rattus norvegicus with 176 samples.

Results

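Among the 176 rat liver arrays, 5 came from sections tagged peri or PERI, and 4 of these are described here together with the 7 TU and 4 untagged sections of the same 4 F344 rats. The sections were found by the tag and the rat number in the labels. Rats 4142 and 4143 belonged to the group Clo:18m, given clofibric acid (CA) and labelled 18m. Rat 4109 belonged to DEN-Clo:12m and rat 4104 to DEN-Clo:9m, which by the group names had both DEN and CA. DEN is the usual abbreviation of the liver carcinogen diethylnitrosamine. The titles name 5000 ppm CA for all 4 rats, as they do for control rats too, and none of the 4 was a control. Each rat gave 1 PERI and 1 untagged section, and TU sections numbered 2 in rat 4142, 3 in rat 4143 and 1 each in rats 4109 and 4104. PERI is read here as peritumoral tissue and TU as tumour, although the labels spell out neither, and they give no sex, age or histology. Rat 4137 of Clo:12m also had a PERI section with the same kind of labels. It was left out with earlier results of these arrays known, no label gives a reason, and its values, which run in the reverse order, are given at the end.

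Clofibric acid activates the nuclear receptor PPARalpha, which in rodent hepatocytes switches on fatty acid oxidation in mitochondria and peroxisomes. Long feeding of such drugs leads to hepatocellular tumours in rats, and DEN starts such tumours by damaging DNA. Tissue beside a liver tumour is often used as the tumour's comparison, and it can be compressed, inflamed or mixed with tumour cells.

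Values are the deposited intensities after every array was scaled to 1 median of 99.35, and differences are in log2(value + 25), so a given log2 difference stands for a larger ratio in dim genes. A section type was compared with another within rats, with TU sections of 1 rat averaged first, over 10674 probe sets that stood for 7773 genes. The deposited medians of the 15 arrays ran from 45.00 to 174.0. In rat 4109 the PERI array had a median of 114.5, against 51.30 for the TU and 45.00 for the untagged array. The untagged array of rat 4104 carried a B suffix that its other arrays lacked. Hepatocyte markers were high in every PERI section, with albumin (Alb) at 11300 to 18173. The cholangiocyte keratin Krt19 lay at 6.96 to 43.2, the acinar protease gene Prss1 at 20.6 to 46.8 and the T cell gene Cd3e at 19.1 to 67.2 in PERI sections, and none of these 3 passed the filter on low values. The section tagged tuga in rat 4142 went against its label, since many of its tumour-raised and tumour-lowered genes lay near the levels of the PERI section, although Cyp2c12 (154 in PERI of that rat, against 233 in tuga) and Lgals3 (385 in PERI, against 646 in tuga) did not.

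PERI sections resembled the untagged liver of their own rat more than the TU sections in 3 of the 4 rats. Likeness was measured as the root mean square log2 difference between 2 arrays. From PERI to the untagged section it was 0.35 in rat 4142, 0.31 in rat 4143, 0.44 in rat 4109 and 0.27 in rat 4104. From PERI to a TU section it was 0.27 for the tuga section of rat 4142 and 0.48 to 0.70 for the other TU sections. Livers of different rats of 1 group differed by 0.29 to 0.46 (median 0.38, 30 pairs), so PERI and untagged sections of 1 animal lay about as far apart as the livers of 2 animals given the same treatment. PERI sections of different rats lay 0.34 to 0.38 apart, across both arms. Among all 175 other arrays, the one nearest to the PERI array was the rat's own untagged section in rats 4143 and 4104. It was the tuga section in rat 4142, where the own untagged section ranked 9th, and also in rat 4109, where the own untagged section, with its low median, ranked 51st.

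**Figure D1:**
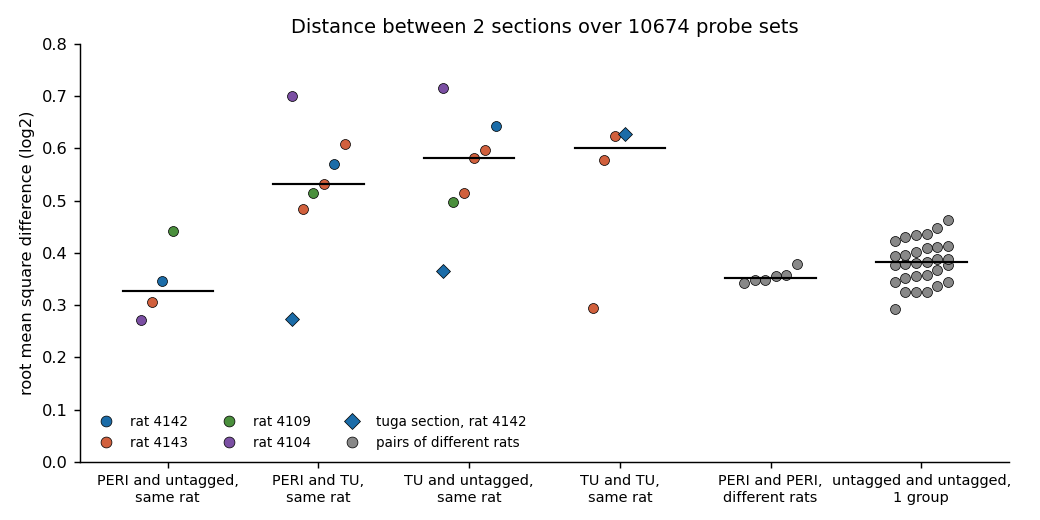
Root mean square log2 difference between 2 arrays (vertical axis) for pairs of sections (points, coloured by rat, grey for pairs of different rats, diamonds for pairs with the tuga section), with the median of each kind as a line. PERI and untagged sections of 1 rat lie at 0.27 to 0.44, within or near the range of untagged livers of different rats, and all TU sections but tuga lie farther from PERI.

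The comparison of PERI with untagged sections asked whether tissue beside a tumour differed from liver of the same animal, and no probe set passed an adjusted p of 0.05 (0 of 10674, 0%, limma with rat as a block and Benjamini-Hochberg adjustment). At an unadjusted p under 0.05 there were 353 probe sets, 3.31% of those tested, and the smallest adjusted p was 0.997. The median standard error of a difference was 0.15 log2, which gives a median unadjusted 95% interval of 0.33 log2 on either side. This error comes from 1 fit of PERI, TU and untagged sections together, so the spread of TU sections enters it. A gene thus has the same SE in each comparison of a pair of section types. The test adjusted over all probe sets needs more than that, and differences of 0.83 log2 (Slc25a4) and -1.285 log2 (Cacng2) did not pass it. Differences of at least 1 log2 were seen for 3 probe sets, chosen here after their values were seen. They were Cacng2 (-1.285 log2), a calcium channel subunit, and a pair of probe sets with no gene name.

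The genes with the smallest unadjusted p in this comparison are given as values only. Since this same comparison picked them, groups without overlap are partly set by the choice and lend no support to a difference. The share of all genes without overlap is not given here. Fam43a had 52.2, 43.9, 48.7 and 70.1 in PERI sections of rats 4142, 4143, 4109 and 4104, against 14.5, 16.6, 24.3 and 41.9 in untagged sections, a difference of 0.70 ± 0.19 log2 (SE, unadjusted p = 0.0024, higher in 4 of 4 rats). All 4 PERI values of Fam43a lay above all untagged values, and in control livers it ran from 12.0 to 73.4. Commd1, whose product takes part in copper handling, had 215, 233, 198 and 183 in PERI, against 135, 171, 114 and 154 in untagged sections, and these groups did not overlap. Cxcl16, a chemokine that macrophages display on their surface, had 115, 129, 91.5 and 132 in PERI sections, against 76.2, 94.8, 31.1 and 106 in untagged sections, with overlap between the groups. Vamp8, a membrane fusion protein, had 866, 1126, 1207 and 1018 in PERI, against 1328, 1323, 1902 and 1212 in untagged sections. Every PERI value of Vamp8 lay below every untagged value. The remaining genes of this kind were Slc9a2, Ribc1, Atf7ip, Pmpca and Ppie with higher means, and Nmur1, Fitm2 and Alpk3 with lower means, in PERI sections, with absolute differences of 0.41 to 0.83 log2.

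Gene lists were read in PERI against untagged sections by their median differences. Since no gene was called in this comparison, none of the 36 lists of cell types, pathways and tumour genes could hold a called gene. Over lists with at least 5 tested genes the median difference ran from -0.25 log2 (hepatocyte markers) to 0.11 (cell cycle genes), against 0.01 over all genes. The hepatocyte median was -0.27, 0.21, -0.91 and -0.07 in rats 4142, 4143, 4109 and 4104. After quantile normalization it became 0.01 over the rats and 0.02 in rat 4109, whose untagged array was the dimmest of the 15. The macrophage and Kupffer cell list had a median of -0.01 (11 genes), the stellate cell and fibroblast list 0.00 (16 genes), the endothelial list 0.06 (7 genes) and the T and NK cell list 0.08 (8 genes). The collagens and matrix list stood at -0.04 (28 genes) and the chemokines and inflammation list at -0.10 (12 genes). For single genes, the fibrillar collagen gene Col1a1 had 68.2, 65.2, 74.97 and 99.1 in PERI sections and 82.3, 81.9, 87.7 and 99.7 in untagged sections. Cd68, a general macrophage marker, had 461, 495, 587 and 414 in PERI and 460, 805, 496 and 560 in untagged sections. The groups overlapped for both genes.

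PERI sections differed widely from TU sections of the same rats. Of 10674 probe sets, 1517 passed an adjusted p of 0.05 (14.2%), with 923 higher (8.65%) and 594 lower (5.56%) in PERI. By gene, 658 of 7773 were higher (8.47%) and 483 were lower (6.21%). In the same fit TU differed from untagged sections at 1648 probe sets (15.4%), 716 higher (6.71%) and 932 lower (8.73%), or 585 (7.53%) and 660 (8.49%) genes. Both comparisons use the same TU arrays, so their likeness is not a separate result. The PERI-TU count was 2454 without the tuga section of rat 4142, 780 without rat 4143, 694 without rat 4109 and 480 without rat 4104, of which the last also leaves out the array with the B suffix. It was 0 in a fit of the 4 PERI-TU differences alone, with 3202 probe sets at an unadjusted p under 0.05, and 60 with rat as a random block.

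The genes lowest in PERI relative to TU sections included several members of the tumour marker list. Mmp12, macrophage elastase, had 121, 59.4, 55.2 and 128.5 in PERI sections of rats 4142, 4143, 4109 and 4104. In TU sections it had 126 (tuga) and 807 (tumi) in rat 4142, 408, 653 and 1640 in rat 4143, 775 in rat 4109 and 1456 in rat 4104, and in untagged sections it had 46.9, 52.0, 56.5 and 72.0. All TU sections but tuga lay above every PERI section. Mmp12 was 6.83-fold lower in PERI than in TU (-2.77 ± 0.27 log2, SE, adjusted p = 0.0007, lower in 4 of 4 rats) and did not pass against untagged liver (0.45 ± 0.27 log2). The PERI values of rats 4142 and 4104 lay above the highest of 15 untagged livers of the same 3 groups, 106, and the other 2 lay within their range, which began at 45.1.

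Slc25a4, an ADP/ATP carrier of the inner mitochondrial membrane, had 487, 544, 152 and 362.5 in PERI sections. It had 220 in the tuga section and 2734 to 4968 in the other 6 TU sections, and 179, 209, 175 and 186 in untagged sections. PERI was 6.46-fold lower than TU (-2.69 ± 0.36 log2, adjusted p = 0.0014). In rats 4142, 4143 and 4104 the PERI value lay above all 4 untagged sections, and in rat 4109 below them. The PERI-untagged difference of 0.83 ± 0.36 log2 had an unadjusted p of 0.04 and did not pass after adjustment. One untagged liver among the 15 of these groups reached 3600, and the median of the 15 was 176.

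Bex3, a small adaptor protein known from p75 neurotrophin receptor signalling, had 57.1, 103, 19.3 and 117 in PERI sections, against 111 in tuga and 345 to 907 in the other TU sections (-2.56 ± 0.37 log2, adjusted p = 0.0018). Its untagged values were 17.7, 178, 22.5 and 21.2, so rat 4143 had more Bex3 in the untagged than in the PERI section. In the 15 control livers of 9m, 12m and 18m Bex3 did not exceed 15.4. Nt5dc2, a protein of the 5'-nucleotidase family, had 88.7, 42.6, 39.8 and 99.6 in PERI, against 48.4 in tuga and 126 to 994 in the other TU sections, and 59.8, 38.5, 47.5 and 52.4 in untagged sections. Cdkn2a, which encodes the cell cycle inhibitor p16, had 18.2, 4.37, 3.47 and 15.9 in PERI and 6.40, 4.82, 3.31 and 2.43 in untagged sections. In TU sections it reached 223 in tumi of rat 4142, 303 in tumi of rat 4143, 138 in rat 4109 and 213 in rat 4104, but 1.49 and 1.58 in the TUD1 and TUD2 sections of rat 4143 and 5.26 in tuga. Cdkn2a passed the filter on low values through 4 TU sections, and its PERI and untagged values were too dim to be set against each other.

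Other genes lower in PERI than in TU included Isyna1 of inositol synthesis (-2.23 ± 0.32 log2), the mitochondrial nucleoside diphosphate kinase Nme4 (-2.02 ± 0.26), the steroid 17-hydroxylase Cyp17a1 (-1.90 ± 0.24), the endoplasmic reticulum prolyl isomerase Fkbp11 (-1.77 ± 0.23), the peptidase Thop1 (-1.74 ± 0.24) and the galectin-binding protein Lgals3bp (-1.67 ± 0.22), each with an adjusted p of 0.0012 to 0.0018 and lower in 4 of 4 rats. Cyp2c12 had 154, 64.9, 92.4 and 74.5 in PERI, 233 to 729 in TU and 71.9, 72.3, 59.2 and 46.7 in untagged sections. Its PERI and TU ranges did not overlap, tuga included. Probe sets of the Cyp2c, Cyp4a, Slco and RT1 families can bind transcripts of close relatives, so their values may mix members.

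**Figure D2:**
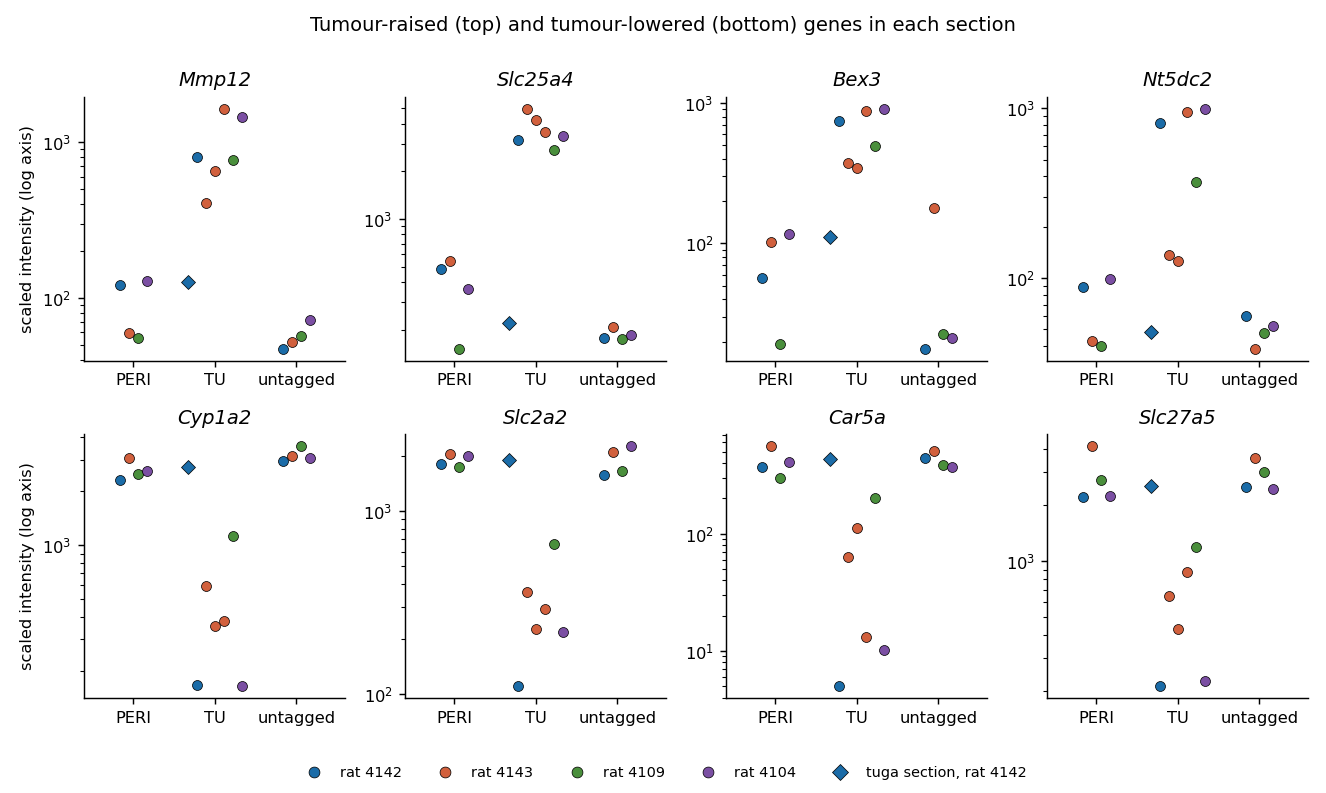
Scaled intensity (log axis) of 8 genes in PERI, TU and untagged sections, with 1 point per section, coloured by rat, and the tuga section of rat 4142 as a diamond. In the bottom row PERI points lie among or near untagged points. In the top row the PERI point lies above the untagged point of its rat for every gene in rats 4142 and 4104. It does so for all but Bex3 in rat 4143, and lies below it for every gene in rat 4109. TU points other than the tuga diamond lie above PERI in the top row and below it in the bottom row.

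Among the genes with the largest excess in PERI over TU sections were several of hepatocyte metabolism, and PERI overlapped untagged liver in each gene whose sections are given here. Cyp1a2, a pericentral P450 that metabolises caffeine, had 2302, 3071, 2489 and 2588 in PERI sections, against 2735 in tuga and 164 to 1125 in the other TU sections, and 2941, 3157, 3565 and 3067 in untagged sections. PERI exceeded TU by 2.34 ± 0.33 log2, or 5.06-fold (adjusted p = 0.0016). In all 4 rats the PERI value of Cyp1a2 lay below the own untagged value, without passing. Slc2a2, the hepatocyte glucose transporter GLUT2, had 1815, 2040, 1736 and 2010 in PERI, against 1900 in tuga and 110 to 657.5 in the other TU sections, and 1577, 2111, 1662 and 2256 in untagged sections. Its PERI-TU difference was 2.26 ± 0.26 log2 and its PERI-untagged difference 0.01 ± 0.26. The 95% interval of the latter, from -0.54 to 0.57, rests on the SE shared with TU sections. Car5a, a mitochondrial carbonic anhydrase, had 374, 556, 299 and 406 in PERI, against 437 in tuga and 4.99 to 203 in the other TU sections, and 444, 508.5, 383 and 374 in untagged sections. The vasopressin receptor Avpr1a (2.12 ± 0.30 log2), the caveola protein Cavin3 (2.18 ± 0.35), the D-amino acid oxidase Dao (2.06 ± 0.45), the cadherin Cdh17 (1.95 ± 0.35), glycerol kinase Gk (1.92 ± 0.47) and the ornithine aminotransferase Oat (1.91 ± 0.25) were higher in PERI in 4 of 4 rats as well.

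Of 17 tested bile acid genes, 12 were higher and 0 lower in PERI than in TU, with a median of 0.89 log2 against 0.02 over all genes, beside 8.47% of all genes called higher. This list and those below were chosen with earlier results of these data known, so their counts describe the lists and test nothing. Slc27a5, which links bile acids to coenzyme A, had 2212, 4123, 2720 and 2239 in PERI sections, against 2530 in tuga and 213 to 1191 in the other TU sections, and 2485, 3590, 3017 and 2436 in untagged sections (2.13 ± 0.27 log2, adjusted p = 0.0012). Cyp7a1, the rate-limiting enzyme of bile acid synthesis, had 1315, 756, 484 and 318 in PERI, against 1793 in tuga and 189 to 311 in the other TU sections, and 978, 800, 431 and 340 in untagged sections. Its PERI level followed the rat, and was highest in rat 4142 in both PERI and untagged sections. The uptake transporters Slco1a4 (1.52 ± 0.22 log2) and Slco1b2 (1.74 ± 0.26) were also higher in PERI than in TU.

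Drug-metabolising P450 genes were higher for 10 of 19 and lower for 1, Cyp2c12, with a median of 0.55 log2, beside 8.47% and 6.21% of all genes. Cyp3a9 had 225, 383, 187 and 205 in PERI sections, against 183 in tuga and 44.5 to 56.4 in the other TU sections (1.66 ± 0.19 log2, adjusted p = 0.001). Genes that depend on growth hormone and sex were higher for 10 of 16 and lower for 1, again Cyp2c12. Cyp2c11, which in rats is the chief male P450 of its family, had 1714, 949, 4559 and 6182 in PERI sections, against 1618 in tuga and 113 to 3054 in the other TU sections, and 1356, 913, 6598 and 6644 in untagged sections. Both PERI and untagged sections thus had less Cyp2c11 in the 2 Clo:18m rats than in the 2 DEN-Clo rats. The growth hormone receptor Ghr (1.28 ± 0.20 log2) and Hsd3b5, a 3-beta-hydroxysteroid dehydrogenase family member (2.21 ± 0.39), were higher in PERI as well.

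Pericentral genes were higher in PERI than in TU for 6 of 10 and periportal genes for 5 of 11, with 0 lower in either list. Over all genes, 8.47% were called higher and 6.21% lower. Hal, the periportal histidine ammonia-lyase, had a difference of 1.26 ± 0.26 log2. Glul, the glutamine synthetase of the last pericentral hepatocytes, did not pass by its brightest probe set (0.38 ± 0.17 log2, adjusted p = 0.14), while another probe set did (1.16 log2, adjusted p = 0.018) and the third did not (0.07 log2, adjusted p = 0.77). Of urea cycle and amino acid genes 8 of 23 were higher and 0 lower. Aass, of lysine breakdown, had 1720, 1547, 1487 and 1476 in PERI sections, against 1636 in tuga and 160 to 924 in the other TU sections, and 1616, 1845, 1214 and 1667 in untagged sections (1.56 ± 0.13 log2, adjusted p = 0.00017). Coagulation and complement genes were higher for 8 of 17, among them C1r (1.25 ± 0.18 log2), a protease that starts complement. In the acute phase list 3 of 18 were higher, such as the pentraxin Apcs (1.17 ± 0.21 log2), and 1 was lower, the lipopolysaccharide-binding protein Lbp (-0.83 ± 0.15). The lower count is near the share over all genes.

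Of 18 tested hepatocyte markers, 2 were higher and 1 lower in PERI than in TU, near the shares over all genes of 8.47% and 6.21%, and Alb did not pass (-0.44 ± 0.26 log2, adjusted p = 0.27). The lower one was Apoa1, the main protein of HDL (-0.89 ± 0.25 log2), and one of the higher ones was Tat, which breaks down tyrosine (0.73 ± 0.17). Apom, a lipocalin carried on HDL, had 1092, 1199, 1313 and 1003 in PERI, against 1020 in tuga and 164 to 712 in the other TU sections. Cytosolic ribosomal protein genes were lower in PERI than in TU for 5 of 24 and higher for 0, beside 6.21% of all genes called lower. After quantile normalization 12 of 24 were lower, where 820 of 10674 probe sets were. Examples with median scaling were Rpl14 (-0.75 ± 0.15 log2) and Rps3 (-0.58 ± 0.16), although another Rpl14 probe set did not pass (-0.28 log2, limma adjusted p = 0.38). The tumour marker list, whose members Mmp12, Bex3, Nt5dc2 and Cdkn2a were put in with results of these arrays known, was lower for 7 of 19 (median -0.42 log2). Without those 4 members it was lower for 3 of 15, with a median of -0.09 log2. The classical rat liver tumour markers Gstp1 and Afp did not pass. The glutathione transferase Gstp1 differed by 0.03 ± 0.16 log2 between PERI and TU, with a 95% interval from -0.31 to 0.37, and alpha-fetoprotein Afp by -0.08 ± 0.20, from -0.51 to 0.36.

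Genes of macrophages, vessels and antigen presentation also separated PERI from TU sections. In whole sections, fewer cells of a type and less RNA per cell cannot be told apart. Of 11 macrophage and Kupffer cell genes 6 were higher in PERI and 1, Lgals3 (galectin-3), was lower, beside 8.47% and 6.21% of all genes. Clec4f, a lectin of Kupffer cells, had 744, 1178, 1149 and 786 in PERI, against 1094 in tuga and 32.5 to 515 in the other TU sections, and 1115, 1157, 1187 and 740 in untagged sections (1.87 ± 0.38 log2, adjusted p = 0.0082). Cd14, the lipopolysaccharide co-receptor, differed by 1.70 ± 0.22 log2 and C1qb by 0.68 ± 0.13, while Cd68 did not pass. Lgals3 had 385, 591, 567 and 675 in PERI, against 646 to 1697 in TU, and 431, 569, 478 and 735 in untagged sections.

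Of 7 endothelial genes 3 were higher in PERI than in TU, with the VEGF receptor Kdr at 1.40 ± 0.30 log2 and the sinusoidal hyaluronan receptor Lyve1 at 1.09 ± 0.27. The perforin gene Prf1 (0.94 ± 0.18 log2) and the chemokine Ccl5 (0.80 ± 0.19) were the 2 of 8 T and NK cell genes higher in PERI. Of 12 chemokine and inflammation genes 4 were higher and 0 lower, including Cxcl12 (1.35 ± 0.26 log2), the alarmin Il33 (1.09 ± 0.18) and the adhesion molecule Vcam1 (0.94 ± 0.18). The interferon and antigen presentation list split evenly, with 5 of 26 higher, such as the interferon-induced Usp18 (0.94 ± 0.15 log2), and 5 lower. Among the lower were the class II genes RT1-Ba (-1.003 ± 0.12 log2, adjusted p = 0.0012) and RT1-Da (-0.65 ± 0.12). RT1-Ba had 237, 335.5, 224.5 and 233 in PERI, against 278 in tuga and 383 to 1093 in the other TU sections, and 255, 483, 337 and 299 in untagged sections. Its PERI values lay below the own untagged value in all 4 rats, without passing (-0.36 ± 0.12 log2, unadjusted p = 0.01). Stellate cell and fibroblast genes were higher for 2 of 16, the proteoglycans Dcn (0.63 ± 0.19 log2) and Bgn (0.82 ± 0.21), and 1 of 11 cell cycle genes, cyclin D1 (Ccnd1, -0.47 ± 0.14), was lower. Both counts are near the shares over all genes, 8.47% higher and 6.21% lower. Further Ccnd1 probe sets did not pass (-0.49 log2, limma adjusted p = 0.091, and -0.10 log2, adjusted p = 0.74).

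Stress-response lists were mixed in PERI against TU sections, where 8.47% of all genes were called higher and 6.21% lower. Of 17 NRF2-type genes 5 were higher and 1 lower, with the carboxylesterase Ces1d at 1.48 ± 0.22 log2 and the glutathione transferase Gsta4 at 0.90 ± 0.18 log2. Of 23 unfolded protein and ATF4 response genes 5 were higher, such as the pseudokinase Trib3 (0.70 ± 0.17 log2), and 3 lower, such as the endoplasmic reticulum protein Sdf2l1 (-0.94 ± 0.18 log2). Immediate-early and heat shock genes were higher for 4 of 15 and lower for 0. After quantile normalization 3 were higher and 3 lower, where 889 of 10674 probe sets were higher and 820 lower. With median scaling, genes of p53 and DNA damage were higher for 1 of 11, near the share over all genes, and lower for 2. None of 7 tested cholangiocyte genes passed in either direction.

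**Figure D3:**
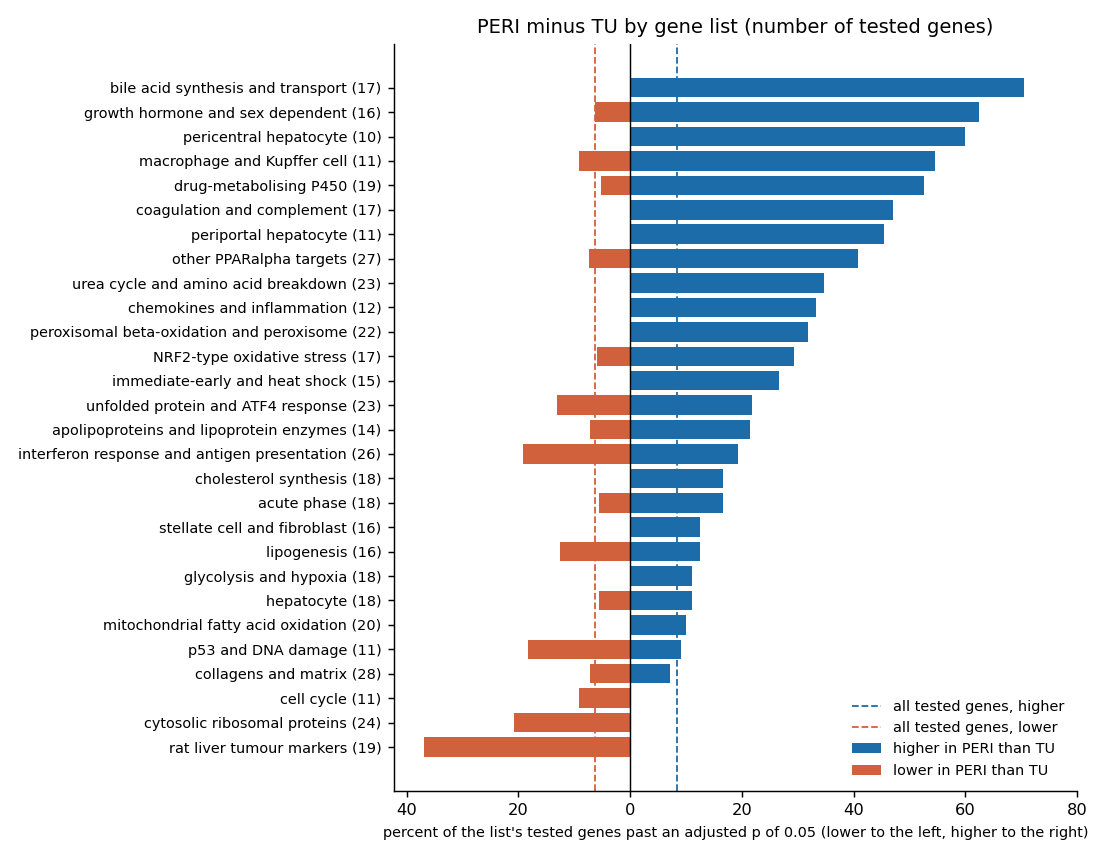
Share of each list's tested genes that passed an adjusted p of 0.05 in PERI minus TU, higher to the right and lower to the left, for lists with at least 10 tested genes (number in brackets), with dashed lines at the shares over all genes, 8.47% and 6.21%. Bile acid genes stand at 12 of 17 higher and the tumour marker list at 7 of 19 lower, of which 4 are members put in with results of these arrays known, and 3 of 15 without them. All lists were chosen with earlier results of these data known.

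Genes of the drug-response panel, chosen with earlier results known, were set against 15 control livers and 10 livers of rats given DEN alone (9m and 12m). Hdc, histidine decarboxylase, had 894, 615, 1473 and 737 in PERI, against 1551 in tuga and 77.8 to 513 in the other TU sections, and 973, 870, 936 and 482 in untagged sections. In 15 livers of control rats (9m, 12m and 18m) it ran from 22.7 to 124, and in the DEN livers from 33.3 to 168, both below every PERI section. Acot1, a fatty acyl-CoA thioesterase, had 205.5, 190, 422 and 71.6 in PERI, and 227, 286, 251.5 and 60.1 in untagged sections, against at most 42.5 in control and 25.1 in DEN livers. The PERI value of Acot1 was lowest in rat 4104, where the untagged value was lowest as well. Vnn1, a pantetheinase, had 1139, 1067, 1284 and 1127 in PERI, 414 to 1155 in TU and 977, 1457, 1105 and 1126 in untagged sections, against 51.6 to 486 in control and 70.1 to 274 in DEN livers. Cpt1b, a carnitine palmitoyltransferase, stood at 567, 606, 421 and 456 in PERI and at most at 137 in control and 144 in DEN livers.

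Other genes of the panel lay below both kinds of liver in PERI. Apoa4, an apolipoprotein, had 255, 215, 275 and 551 in PERI, 72.4 to 589 in TU and 295, 220, 336 and 510 in untagged sections, against 3628 to 8376 in control and 4883 to 7449 in DEN livers. C1s, a complement protease, had 731, 752.5, 663 and 1153 in PERI and 582, 800, 471 and 1044 in untagged sections, against 2527 to 3894 in control and 2138 to 3777 in DEN livers. Between PERI and TU, 11 of 27 PPARalpha targets outside the oxidation pathways were higher and 2 were lower, with a median of 0.33 log2. Over all genes these shares were 8.47% and 6.21%. Hdc differed by 1.62 ± 0.25 log2 and Angptl4, an inhibitor of lipoprotein lipase, by 0.70 ± 0.12. Cyp4a8, a fatty acid hydroxylase family member, was lower by 1.06 ± 0.21, and among untagged sections and PERI it was at 29.6 to 59.2, against 312 to 1584 in control livers. Of 22 peroxisomal genes 7 were higher and 0 lower in PERI than in TU, among them the racemase Amacr (1.62 ± 0.29 log2) and the acyltransferase Crot (0.93 ± 0.17). Of 20 mitochondrial oxidation genes 2 were higher and 0 lower, near the 8.47% of all genes called higher. After quantile normalization 4 of 20 were higher, where 889 of 10674 probe sets were. The lipogenic desaturase Scd2 was lower in PERI than in TU (-0.78 ± 0.21 log2), with 1367, 1954, 1128 and 1040 in PERI, 914 to 3076 in TU and 1081, 1936, 1094 and 833 in untagged sections, all above the control livers, which ran to 403.

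**Figure D4:**
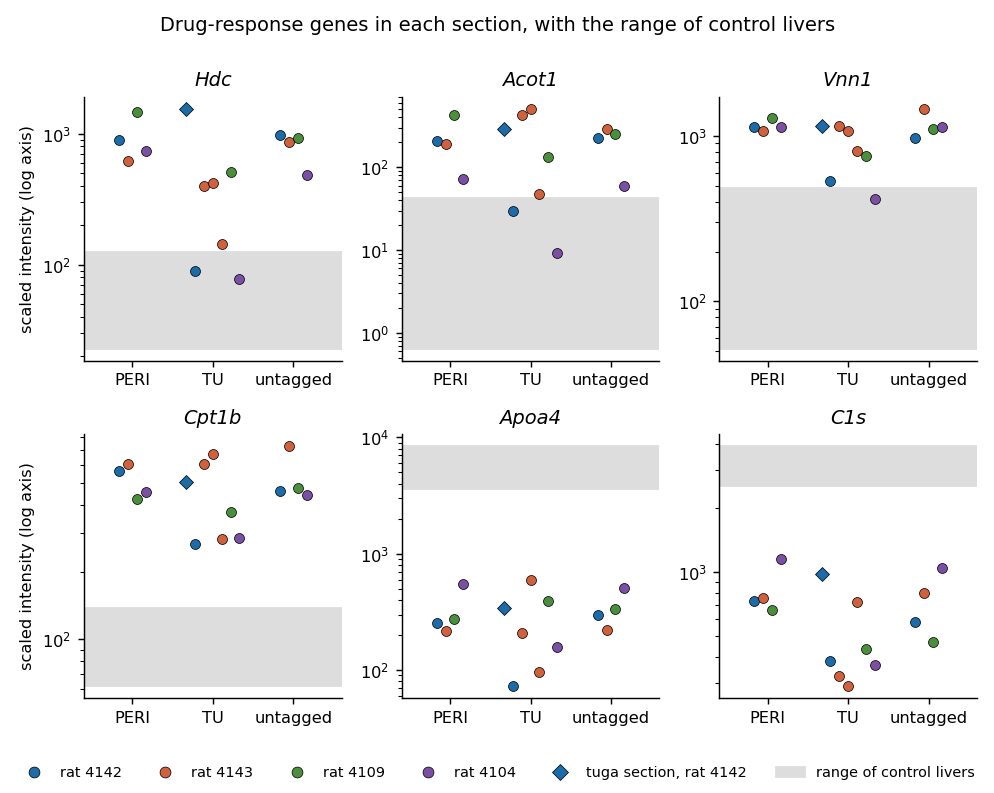
Scaled intensity (log axis) of 6 drug-response genes in PERI, TU and untagged sections (1 point per section, coloured by rat, tuga as a diamond), with the range of 15 control livers of 9m, 12m and 18m as a grey band. PERI and untagged points lie together, above the band for Hdc, Acot1, Vnn1 and Cpt1b and below it for Apoa4 and C1s.

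The position of PERI between liver and tumour was then read on probe sets found in other animals. In 11 other rats of the Clo and DEN-Clo arms, TU exceeded untagged sections at 1415 of 11311 probe sets (12.5%) and fell short at 2253 (19.9%), of which 1349 and 2224 were also tested here. After quantile normalization these were 1863 and 1803. Some of these other rats came from groups labelled rev, a tag the labels do not explain. Some came from a Clo group whose time label had no unit. Their treatment may thus have differed from that of the 4 rats. Without the rats labelled rev, TU exceeded untagged sections at 1266 of 11076 probe sets and fell short at 1962. Over the 1349 raised probe sets, the median PERI-untagged difference was 0.09, -0.02, 0.09 and 0.07 log2 in rats 4142, 4143, 4109 and 4104, while the TU-untagged difference was 0.42, 0.30, 0.41 and 0.67. Over the 2224 lowered probe sets, the PERI-untagged difference was -0.07, -0.08, 0.07 and -0.03, and the TU-untagged difference was -0.25, -0.49, -0.27 and -0.64. Over all tested probe sets the median PERI-untagged difference was -0.01, -0.04, 0.06 and 0.01 in the same order. In rat 4109 the raised and the lowered probe sets thus both lay near the median of all probe sets. The means over rats were 0.06 ± 0.05 for PERI and 0.45 ± 0.16 for TU on raised probe sets, and -0.03 ± 0.07 and -0.41 ± 0.19 on lowered ones (SD, n = 4). In each rat PERI lay nearer to untagged liver than to TU on both sets. Of the raised probe sets 478 (35.4%) were called lower and 1 higher in PERI than in TU, and of the lowered ones 778 (35.0%) were called higher. Over all tested probe sets 5.56% were called lower and 8.65% higher. TU against untagged sections, with the same TU arrays, called 584 (43.3%) of the raised sets higher and 829 (37.3%) of the lowered sets lower. These counts are thus not separate results. No probe set at all was called between PERI and untagged sections, so that comparison adds no count here.

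**Figure D5:**
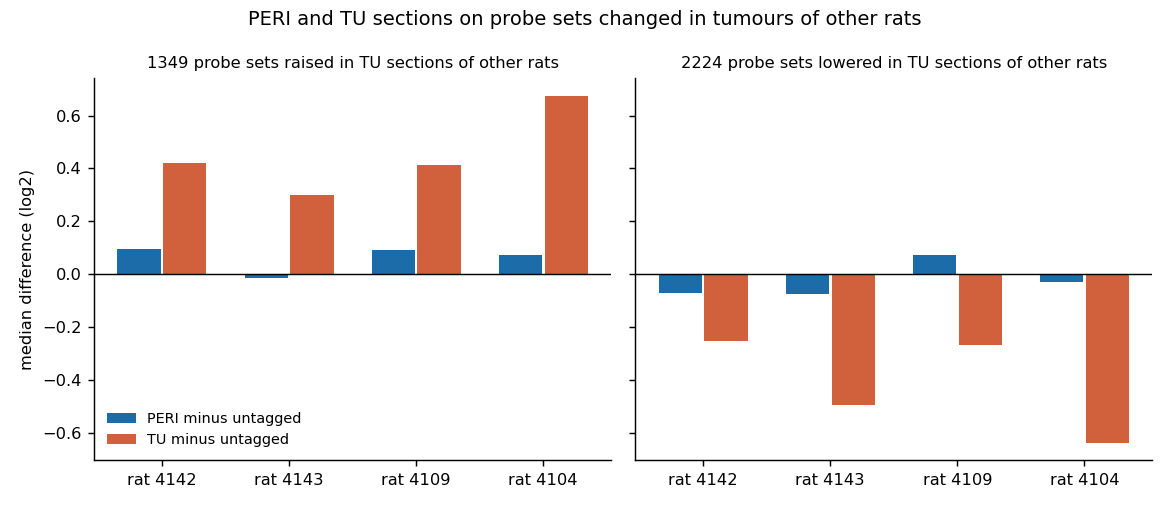
Median log2 difference from the untagged section of the same rat (bars, PERI left of TU, 1 pair per rat), over 1349 probe sets raised and 2224 lowered in TU sections of 11 other rats. PERI bars lie between -0.08 and 0.09, and TU bars reach 0.30 to 0.67 on raised and -0.25 to -0.64 on lowered probe sets.

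On the linear scale the offset has no effect, so the 50 genes with the largest TU excess in the other rats were also read there, a choice made after seeing the data, with the tuga section left out. The way from untagged to TU was read over genes with TU above untagged, 50, 49, 46 and 49 in rats 4142, 4143, 4109 and 4104. Rat by rat, the median gene in PERI stood 7.57%, 0.88%, 1.79% and 4.09% of the way. The quartiles were 2.26% and 13.1% in rat 4142, -10.6% and 9.13% in rat 4143, -8.88% and 15.2% in rat 4109, and -1.43% and 10.1% in rat 4104. PERI exceeded the untagged section for 44, 26, 27 and 35 of the 50 genes in these rats. Over all 7773 genes the share with PERI above untagged was 48.5%, 44.6%, 56.6% and 53.4%. Rats 4142 and 4104 also had the highest PERI values of Mmp12 and Nt5dc2, but Slc25a4 was highest in PERI of rat 4143 and Bex3 was higher there than in rat 4142. In rat 4109 Mmp12, Bex3 and Nt5dc2 were lower in PERI than in its untagged section.

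A direct test against the point halfway between TU and untagged liver called 0 of 10674 probe sets (0%, limma, smallest adjusted p 0.101), with 1537 at an unadjusted p under 0.05. Without the tuga section it called 29, and with the tumi section alone for rats 4142 and 4143 it called 287, while without scaling it called 149. Mmp12 stood 1.16 log2 below halfway and Slc2a2 1.13 above it, both with an adjusted p of 0.21.

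The PERI-untagged difference was not shown to depend on the arm. A test of the DEN-Clo minus Clo difference called 0 of 10674 probe sets (limma, 205 at an unadjusted p under 0.05), with 2 rats in each arm. Arm and time cannot be told apart here, since both Clo rats were of 18m and the DEN-Clo rats of 9m and 12m. Levels in PERI followed the animal for some genes, as in the urinary protein gene Obp3, which had 90.4, 34, 195 and 1313 in PERI and 51.5, 33.98, 94.7 and 1269 in untagged sections of rats 4142, 4143, 4109 and 4104.

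Rat 4137 showed the reverse order. Its PERI and TU sections lay 0.26 log2 apart, and its untagged section lay 0.59 from PERI and 0.57 from TU. Mmp12 had 71.7 in the PERI, 90.6 in the TU and 1541 in the untagged section, and Cyp1a2 had 3031, 2379 and 302 in the same order. The labels of these 3 sections thus go against the other 4 rats, and adding this rat gave 0 calls in PERI minus TU (limma, 1789 at an unadjusted p under 0.05) and 0 in PERI minus untagged.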

How the data were processed

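Total RNA of rat liver sections was measured on Affymetrix arrays, 1 array per section, and the deposited values are linear intensities of 15922 probe sets, made by the authors with MAS5 per the submitters' processing notes. Its version and scaling target are not given in the sources used here. The platform annotation gave 12783 probe sets 1 gene, 312 several and 2827 none, and the brightest probe set stood for a gene.

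Each array was scaled to the median of the 176 array medians. An offset of 25 was added before log2, and a probe set was tested if at least 3 of the 15 arrays had it above their own 40th percentile. A limma fit (limma 3.58.1, R 4.3.3) with section type and rat as terms, an intensity trend and 6 residual degrees of freedom gave two-sided tests, adjusted after Benjamini and Hochberg at 0.05. The other 11 rats entered as within-rat differences. Sections with 1 rat number come from 1 animal, and correlations of their deviations from the section means ran from -0.01 to 0.36. Between sections of different rats they ran from -0.36 to 0.29, so the ranges overlapped. With rat as a random block the fitted correlation was 0.034. The median SE, and not counts, sets the precision, since arrays give no depth. The code was tested on simulated data. Named genes were the 12 highest and 12 lowest called in all 4 rats, up to 4 per list and a panel; where none was called, the 12 smallest p. Members and lists were chosen with earlier results of these data known. Alternatives changed the offset, scaling, filter, block, weights, rats and TU sections.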

Additional observations from a re-analysis of the deposited data

Results flagged for a closer look

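Over 180 groups of 4 within-rat differences, 7 held a rat that stood apart from the other 3 by Dixon's criterion (3.89%), where chance gives about 1 in 20. In PERI minus untagged, Slc27a5 stood apart in rat 4143 at 0.20 log2, with -0.17 to -0.12 in the others, and Gstp1 in rat 4104 at 0.56 log2, with -0.27 to -0.14 in the others. In PERI minus TU, Mmp12 in rat 4142 was at -1.28 log2, against -3.32 to -3.22 in the others, and this rat's TU mean includes the tuga section. Rat 4104 stood apart in PERI minus TU for Dao at 4.09 log2 (others 1.17 to 1.59), for Obp3 at 4.16 (others 1.05 to 1.10) and for Slco1b2 at 2.94 (others 1.23 to 1.47). Trib3 in rat 4143 was at 1.45 log2, against 0.40 to 0.56 in the others.

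The sections of rat 4137, which entered no comparison of the 4 rats, held a tumour-type signal in the untagged array. Over probe sets raised in TU sections of other rats its median PERI minus untagged difference was -0.70 log2, and over the lowered ones it was 0.48 log2, while the 4 rats lay between -0.08 and 0.09 on both sets. Whether tags were exchanged was not tested.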

How the results depend on the processing

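PERI minus untagged stayed at 0 calls under every alternative run, including a fit against all 15 untagged livers of the 3 groups. Its arm difference stayed at 0 under changes of offset, scaling and filter. PERI minus TU (1517 probe sets) and TU minus untagged (1648) came to 731 and 162 without scaling, where 700 of the 731 were higher in PERI (95.8%, against 60.8% with scaling), to 60 and 399 with rat as a random replicate block, to 0 and 0 as fits of their own differences or with rat 4137 added, to 2661 and 2737 with the tumi section alone in 2 rats, and to 267 and 308 with a 2-fold limit. Leaving out 1 rat gave 480 to 1341 and 644 to 1362, and leaving out tuga 2454 and 2437. Without rat as a block, and so without pairing by rat, counts were 1017 and 1161. The halfway test gave 149 without scaling, 1 with the filter at the 70th percentile, 12 with array weights, 287 with tumi alone, 29 without tuga and 0 to 1 with 1 rat left out. In the other rats 3668 calls became 1976 without scaling. With a 2-fold limit there, the mean position on raised probe sets was 0.12 (PERI minus untagged), -0.99 (PERI minus TU) and 1.16 (TU minus untagged), and 1.10 (PERI minus TU) and -1.16 (TU minus untagged) on lowered ones; with tumi alone the raised values were -0.56 for PERI minus TU and 0.62 for TU minus untagged. An offset of 100 lowered the median distance to 0.22 for PERI and untagged and 0.44 for TU and untagged. Of 148 called gene results (79 genes), 0 changed sign, and 97 kept their call without scaling, 119 without the block, 119 without rat 4104, 56 with the random block and 0 with own differences. After quantile normalization glycolysis and hypoxia genes were lower in PERI than in TU for 4 of 18 and cholesterol synthesis genes for 2 of 18, against 0 each with median scaling. Over all 10674 probe sets quantile normalization called 889 higher and 820 lower in PERI than in TU, against 923 and 594 with median scaling. The cholesterol synthesis count is near that lower share. The causes were not tested beyond the fewer samples or larger fold these settings impose. With 4 rats, array intensities near background and 1 array per section, changes in single genes of PERI sections had to be large to pass.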
